A study of Homo sapiens with 18 samples.

Results

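The mitochondrial ribosomal protein genes were taken as every gene of the deposited count table whose symbol is MRPL or MRPS followed by a number, with or without a letter A, B or C, pseudogenes left out. The rule found 76 of 55766 genes, 47 with an MRPL and 29 with an MRPS symbol, on 21 chromosomes. They were measured in K562, an established human erythroleukaemia line, here with a B2M:tdTomato transgene which couples B2M, the invariant chain of MHC class I, to a red fluorescent protein. RNA-seq and MeDIP-seq, in which an antibody to 5-methylcytosine pulls down the DNA that is sequenced, were each run on 9 libraries, 3 per group. The untreated group carried the transgene and received no plasmid that the labels name. The TALE group carried the transgene and was silenced with 3 plasmids, each for a different ATR (the labels' abbreviation), at 1 ug for the D3A-based ATR and at matching molar amounts for the others. The dCas9 group carried the transgene and was silenced with 3 such plasmids built on dCas9, plus 250 ng of an sgRNA plasmid. TALE proteins and dCas9 can be programmed to bind a chosen DNA site, and the design text gives the B2M promoter as the site to be methylated. The time from treatment to collection, and whether each group is 1 clone or a sorted pool, are not given in the labels. Whether replicates were separate cultures is not given either, so p-values measure the spread between these libraries, which may be technical.

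Mitochondria translate the few messenger RNAs of their own genome, which code for subunits of the respiratory chain and the ATP synthase. The ribosome that does this has ribosomal RNAs made in the organelle and proteins that are all encoded in the nucleus, made in the cytosol and imported. Some of these proteins have homologues in bacterial ribosomes, and others are found in mitochondria only. The symbols name the large (MRPL) and small (MRPS) subunit, with the exceptions of MRPS18A and MRPS30, which sit in the large one. By symbol, with MRPS18A and MRPS30 moved to the large subunit, the members divide into 49 of the large and 27 of the small subunit. MRPS36 was counted with the small subunit by its symbol alone, and its place in the ribosome was not examined. After the filter on low counts 73 members were left, 47 of the large and 26 of the small subunit, among 13786 genes tested. Of these 73, 45 have a bacterial homologue, 27 are specific to mitochondria and 1, MRPL55, was left unassigned.

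The total RNA count per library ran from 8460076 to 12050554, and the members together took between 0.506% and 0.625% of it. Counts in the MeDIP regions ran from 2529729 to 4492751 per library. The targeted gene followed the labels. The level of the B2M_tomato row, in CPM (TMM-scaled counts scaled to the library size), was 379 ± 18.04 in untreated, 15.1 ± 2.84 in TALE and 16.3 ± 2.57 in dCas9 libraries (SD, n = 3 each). For this row and for B2M itself, every untreated library lay above every silenced one, while TALE and dCas9 libraries overlapped. All 10 K562 markers examined, such as GATA1 and the globin gene HBG2, were detected and tested. Among markers of other cell types, CD3E, MS4A1, CD14, ALB and MPO had at most 15 counts in any library, COL1A1 had at most 33 and PECAM1 is no row of the table. EPCAM at 85.0 to 118 CPM was present in every library. So was PTPRC, with 283 to 316 CPM in untreated, 207 to 245 in TALE and 181 to 221 in dCas9 libraries. Its untreated libraries lay above all others, at edgeR adjusted p = 0.582 for TALE and 0.208 for dCas9 against untreated, and its part in the members' values was not tested. The share of counts from genes of the mitochondrial genome differed between libraries, from 4.04% in TALE replicate 2 to 14.0% in dCas9 replicate 2.

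Promoter sequence was examined first, since the members lie apart in the genome and could share letters near their starts. The RefSeq table (GRCh38.p14) gave a window from 250 bases before to 50 after the start for 67 of the 76 members, 1 window a gene, the first listed. MRPL15, MRPS36, MRPL13, MRPL23, MRPL35, MRPL2, MRPS28, MRPL10 and MRPL21 had no window. For some members the RefSeq start is not the GENCODE start from which distances and MeDIP regions are given below. It lay at -13299 bases from the GENCODE start in MRPL34 and at -263 bases in MRPL4 (negative is upstream). Motifs named for 6 factors or elements were searched as exact letters on both strands: GCGCATGC for NRF1, CCGGAAG for the ETS family, AAGATGGC for YY1, CACGTG for the E-box, TGACGTCA for CRE and GGGCGG for SP1. NRF1 and an ETS-family factor, GABP, are textbook regulators of nuclear genes for mitochondrial proteins, and YY1 is a zinc-finger factor that often binds close to starts. The ETS letters were in 28 of 67 members' windows (41.8%), against 14.2% of 15843 protein-coding windows and 10.7% of all 27305 windows. The YY1 letters were in 20 members' windows (29.9%), against 3.91% of protein-coding and 3.03% of all windows. Either was in 40 windows (59.7%, against 17.2% of protein-coding windows) and both were in 8 (11.9%, against 0.903%). The NRF1 letters were in 6 (8.96%, against 4.26%), the E-box in 6 (8.96%, against 8.88%), CRE in 0 (against 2.59%) and SP1 in 41 (61.2%, against 58.5%). In 1 member's window letters of 2 different motifs overlapped. The windows held a median of 24 CpG dinucleotides (range 7 to 51), against 22 in protein-coding windows. These are matches of letters and were not tested for binding. The YY1 letters contain ATG, the letters of a start codon. They lie before the transcript start in MRPL52, MRPL47, MRPL36, MRPL32 and MRPS12. In the other members that have them, MRPL38 and MRPS18A included, they lie past it. How many of the YY1 matches fall where coding begins was not examined.

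The promoters of 4 members are shown because each returns in the results that follow: MRPL52 has the MeDIP region with the smallest unadjusted p, MRPS34 the smallest unadjusted p in RNA, MRPS18A is the large-subunit S18 homologue and MRPL38 has the lowest tested level. Each runs 5′ to 3′ on the gene's strand from 250 bases before to 30 after the start, is RefSeq sequence (GRCh38.p14), and matched GRCh37 exactly at the place given. Capitals mark letters of the motifs above or their reverse complement. MRPL52 (chr14:23298846-23299125, plus strand) holds NRF1, YY1, YY1 and ETS letters in that order. MRPS34 (chr16:1823106-1823385, minus strand) holds SP1 letters and then ETS letters. MRPS18A (chr6:43655499-43655778, minus strand) holds SP1, ETS and, past the start, YY1 letters. MRPL38 (chr17:73900936-73901215, minus strand) holds SP1, ETS, SP1 and, past the start, YY1 letters.
MRPL52: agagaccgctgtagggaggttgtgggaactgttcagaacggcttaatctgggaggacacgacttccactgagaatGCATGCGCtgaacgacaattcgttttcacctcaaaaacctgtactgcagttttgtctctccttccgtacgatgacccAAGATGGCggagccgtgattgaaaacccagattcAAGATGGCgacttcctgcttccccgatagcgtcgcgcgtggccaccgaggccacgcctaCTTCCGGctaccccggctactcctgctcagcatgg
MRPS34: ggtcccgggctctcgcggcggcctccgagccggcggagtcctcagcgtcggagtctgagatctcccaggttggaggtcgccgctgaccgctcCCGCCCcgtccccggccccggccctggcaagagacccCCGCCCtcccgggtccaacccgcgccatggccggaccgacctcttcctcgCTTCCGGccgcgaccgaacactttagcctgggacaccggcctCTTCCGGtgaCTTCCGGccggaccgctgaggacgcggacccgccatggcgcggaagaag
MRPS18A: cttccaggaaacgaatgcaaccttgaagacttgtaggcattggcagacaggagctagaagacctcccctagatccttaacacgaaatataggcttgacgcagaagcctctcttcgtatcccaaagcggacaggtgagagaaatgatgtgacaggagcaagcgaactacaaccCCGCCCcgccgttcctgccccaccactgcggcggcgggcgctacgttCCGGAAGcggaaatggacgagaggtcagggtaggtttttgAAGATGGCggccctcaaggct
MRPL38: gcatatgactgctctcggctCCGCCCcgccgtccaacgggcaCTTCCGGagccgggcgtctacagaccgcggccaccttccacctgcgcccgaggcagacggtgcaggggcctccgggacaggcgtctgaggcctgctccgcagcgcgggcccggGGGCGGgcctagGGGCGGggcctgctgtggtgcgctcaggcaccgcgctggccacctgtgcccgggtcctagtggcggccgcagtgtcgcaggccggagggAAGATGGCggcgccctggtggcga

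Many members share their start region with another gene. By the GENCODE annotation on GRCh37, 25 of 76 members (32.9%) had a protein-coding gene that starts within 1 kb on the other strand and runs away from them, against 9.46% of 18951 protein-coding genes of the table. MRPL46 and MRPS11, 1 protein of each subunit, face each other with starts 320 bases apart. MRPL43 starts 46 bases from TWNK, the helicase that unwinds mitochondrial DNA. MRPS12, the homologue of bacterial S12 at the decoding centre, starts 181 bases from SARS2, the mitochondrial seryl-tRNA synthetase. These examples were chosen after their distances were seen. Whether the authors' counts used strand is not given in the sources used here, so it is not known whether reads from transcripts that overlap on opposite strands were told apart.

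In untreated cells the members spanned a wide range of levels. Levels between genes were compared as CPM per kilobase of merged exons, and the median of the 73 members was 23.7. MRPS21, the homologue of bacterial S21, had the highest level on this scale, 115 ± 2.34 (SD, n = 3). MRPL40 followed at 95.2 ± 2.45, MRPS34 at 89.0 ± 4.55, MRPL3, a core protein of the large subunit, at 79.4 ± 2.21 and MRPL18 at 72.1 ± 1.33. At the other end stood MRPS25 at 5.37 ± 0.134, MRPS27, a pentatricopeptide repeat protein of the small subunit, at 4.35 ± 0.142, and MRPL46 at 3.88 ± 0.499. MRPS5, at the messenger RNA entrance, had 3.53 ± 0.119 and MRPL38 had 0.519 ± 0.0531. Of the 72 pairs of neighbours in this order, 59 overlapped in their range over the untreated libraries, so most neighbours did not differ beyond their spread. MRPL40 was below MRPS21 in every untreated library. The order rests on the length used, because merged exons count every annotated isoform. With the canonical transcript as the length, 2 of these 5 highest and 1 of these 5 lowest members kept their place among the 5, and with the longest transcript 3 and 3 did. MRPL38 was lowest with all 3 lengths.

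**Figure D1:**
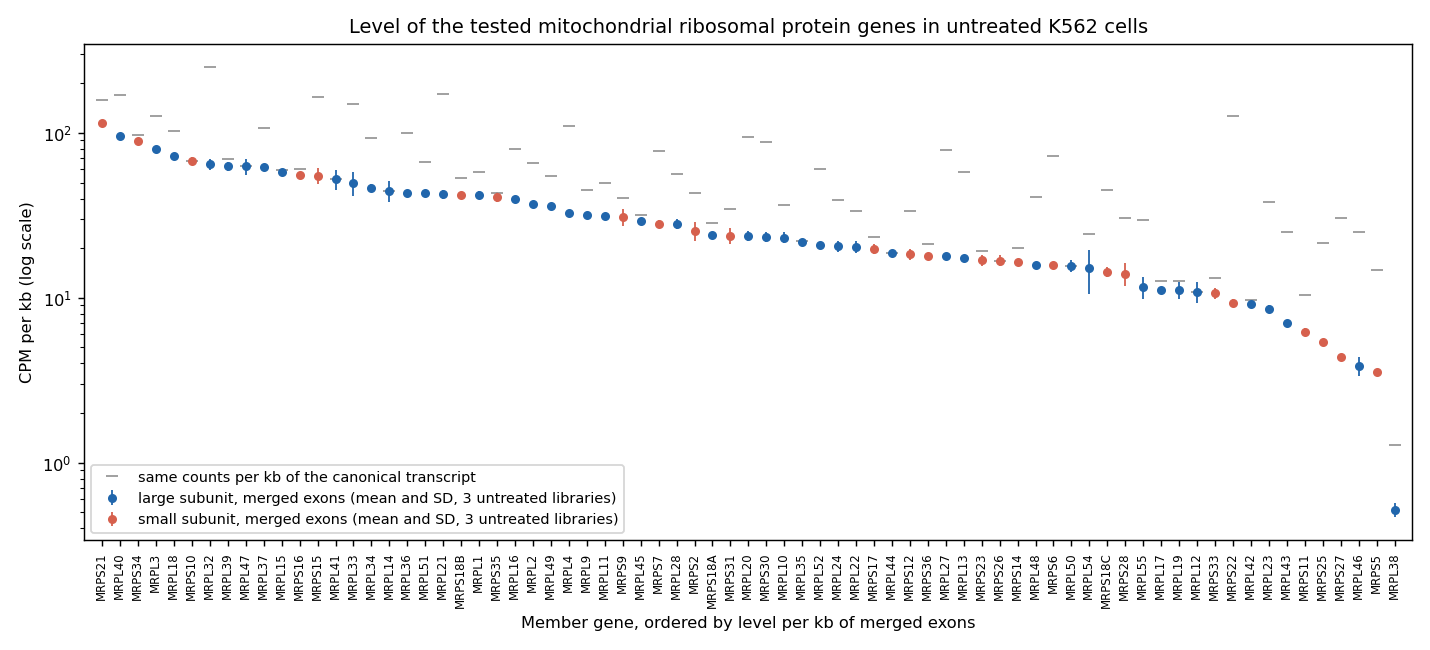
Level of each of the 73 tested members in untreated K562 cells, in CPM per kilobase on a log axis, ordered from highest to lowest. Points and bars are the mean and SD of 3 libraries per kilobase of merged exons, in blue for the large and red for the small subunit, and grey ticks use the canonical transcript. Levels run from 115 for MRPS21 to 0.519 for MRPL38, with both subunits along the whole order.

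The counts of 4 members were near 0. MRPL53 had 1 to 6 counts per library, MRPL30 0 to 10 and MRPS24, the homologue of bacterial S3 at the messenger RNA entrance, 0 to 11, and these 3 failed the filter. MRPL38 had 6 to 23 counts per library and passed. In the GENCODE annotation a large share of the canonical exons of 3 of them also belongs to another gene on the same strand. That share was 99.2% for MRPL53 (with CCDC142), 90.9% for MRPS24 (with the readthrough gene URGCP-MRPS24), 94.3% for MRPL38 and 12.7% for MRPL30. Overlap was high for other members too, with 97.1% for MRPS5, 73.4% for MRPL46 and 69.5% for MRPL12, which had at least 76 counts in every library. MRPL2 and MRPS28 also shared most of their canonical exon bases with another gene. Of these, MRPS5 and MRPL46 were, with MRPL38, among the 5 lowest tested members per kilobase of merged exons. MRPL12, MRPL2 and MRPS28 were not. No overlap was found for 61 of 76 members. The annotation and the counter's rule for shared bases are not given in the sources used here, and the part of overlap in these low counts was not tested.

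The first RNA comparison asked whether the members differ between TALE-silenced and untreated cells. None passed the test: 0 of 73 members were called by edgeR's quasi-likelihood test at an adjusted p under 0.05, where 0.0218% of all genes tested were called. DESeq2 called 0 members as well. At an unadjusted p under 0.05 the count was 1 of 73, against 7.15% of all genes. The median log2 fold change of the members was -0.0034, beside 0.0024 over all genes, and 35 members were higher and 38 lower. The large subunit (median -0.0081, 21 of 47 higher) and the small subunit (median 0.0078, 14 of 26 higher) had 0 members called each. All 73 intervals of 95% lay between -1 and 1 on the log2 scale, and 64 lay between -0.5 and 0.5.

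MRPS34, a mitochondria-specific protein of the small subunit (chr16:1821891-1823151, minus strand), had the smallest unadjusted p. Its level was 103, 93.9 and 94.8 CPM in untreated and 119, 122 and 125 CPM in TALE libraries, and the groups did not overlap. This gave a log2 fold change of 0.33 (SE 0.12, edgeR adjusted p = 0.585). MRPL12, the stalk protein that recruits translation factors (chr17:79670397-79674547, plus strand), had 12.2, 11.6 and 9.20 CPM in untreated and 13.6, 12.5 and 14.8 CPM in TALE libraries. These did not overlap either, at a log2 fold change of 0.30 (SE 0.18, edgeR adjusted p = 0.770). MRPL10, which anchors MRPL12 to the ribosome, had 66.2, 58.4 and 67.8 CPM in untreated and 60.5, 77.9 and 85.1 CPM in TALE libraries. Here the groups overlapped, at a log2 fold change of 0.22 (SE 0.14, edgeR adjusted p = 0.784). MRPL35 (chr2:86426478-86440913, plus strand) lay the other way, with 84.8, 79.8 and 83.7 CPM in untreated and 74.2, 67.6 and 76.7 CPM in TALE libraries. The groups did not overlap, at a log2 fold change of -0.19 (SE 0.11, edgeR adjusted p = 0.770). MRPL45, which ties the ribosome to the inner membrane at the polypeptide exit, had 47.4, 50.9 and 50.5 CPM in untreated and 38.8, 38.8 and 52.8 CPM in TALE libraries. TALE replicate 3 was above all untreated libraries and the other two were below, at a log2 fold change of -0.19 (SE 0.13, edgeR adjusted p = 0.793). Over all 73 members, the groups did not overlap with TALE higher in 6 (6.09% of all genes) and with TALE lower in 1 (6.44% of all genes).

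In dCas9-silenced against untreated cells 0 of 73 members were called by edgeR, where 0.029% of all genes tested were, and 0 by DESeq2. At an unadjusted p under 0.05 the count was 1, against 5.93% of all genes. The median log2 fold change was -0.030, beside -0.0031 over all genes, with 27 members higher and 46 lower. Both subunits lay alike, with medians of -0.030 (large) and -0.035 (small). The 95% interval lay between -1 and 1 for 72 of 73 members. The exception was MRPL38, whose interval of -1.38 to 0.26 rests on 6 to 23 counts per library.

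MRPS28, a homologue of part of bacterial S1, had the smallest unadjusted p. Its level was 29.8, 22.0 and 24.7 CPM in untreated and 24.5, 19.0 and 13.4 CPM in dCas9 libraries, so the groups overlapped. This gave a log2 fold change of -0.43 (SE 0.19, edgeR adjusted p = 0.791). MRPL1, a protein of the stalk by which spent tRNA leaves, had 63.8, 71.4 and 70.3 CPM in untreated and 69.5, 50.1 and 47.1 CPM in dCas9 libraries. The groups overlapped through dCas9 replicate 1, at a log2 fold change of -0.30 (SE 0.14, edgeR adjusted p = 0.843). MRPL4, a core protein of the large subunit, had 136, 131 and 133 CPM in untreated and 144, 142 and 180 CPM in dCas9 libraries. All dCas9 libraries were higher, with replicate 3 well above the others, at a log2 fold change of 0.22 (SE 0.12, edgeR adjusted p = 0.899). MRPS36, also known as a component of the 2-oxoglutarate dehydrogenase complex, had 27.1, 29.0 and 28.0 CPM in untreated and 37.3, 37.8 and 26.8 CPM in dCas9 libraries. The dCas9 replicate 3 library was below every untreated one, at a log2 fold change of 0.28 (SE 0.16, edgeR adjusted p = 0.899). MRPS12 had 29.8, 31.6 and 34.9 CPM in untreated and 32.8, 20.2 and 28.4 CPM in dCas9 libraries, which overlapped, at a log2 fold change of -0.24 (SE 0.16, edgeR adjusted p = 0.939). Groups did not overlap with dCas9 higher in 2 members (5.6% of all genes) and with dCas9 lower in 1 (5.97% of all genes).

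TALE against dCas9 compares the 2 ways of silencing, and it shares its libraries with the comparisons above. Again 0 of 73 members were called by edgeR, where 0% of all genes tested were, and 0 by DESeq2. The count at an unadjusted p under 0.05 was 1 by edgeR, against 6.38% of all genes, and 0 by DESeq2. The median log2 fold change was 0.044, beside 0.0017 over all genes, with 46 members higher in TALE and 27 lower. MRPL28 (chr16:416969-421289, minus strand) had 84.3, 93.3 and 93.0 CPM in TALE and 82.9, 67.0 and 77.9 CPM in dCas9 libraries. It was the only member whose groups did not overlap, and they did so with TALE higher (4.88% of all genes, and 4.5% with TALE lower), at a log2 fold change of 0.25 (SE 0.11, edgeR adjusted p = 0.770). MRPS28 followed, with 23.2, 22.4 and 29.0 CPM in TALE libraries and a log2 fold change of 0.39 (SE 0.18, edgeR adjusted p = 0.778) against the dCas9 values above. MRPS34 had 122, 86.3 and 104 CPM in dCas9 libraries, of which only replicate 1 reached the TALE values, at a log2 fold change of 0.23 (SE 0.12, edgeR adjusted p = 0.808). MRPL20 had 75.6, 65.7 and 74.7 CPM in TALE and 67.7, 59.2 and 61.2 CPM in dCas9 libraries, at a log2 fold change of 0.20 (SE 0.11, edgeR adjusted p = 0.814). MRPL44, a relative of RNase III, had 31.5, 34.8 and 34.7 CPM in TALE and 34.2, 25.7 and 27.3 CPM in dCas9 libraries, at a log2 fold change of 0.21 (SE 0.13, edgeR adjusted p = 0.822).

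**Figure D2:**
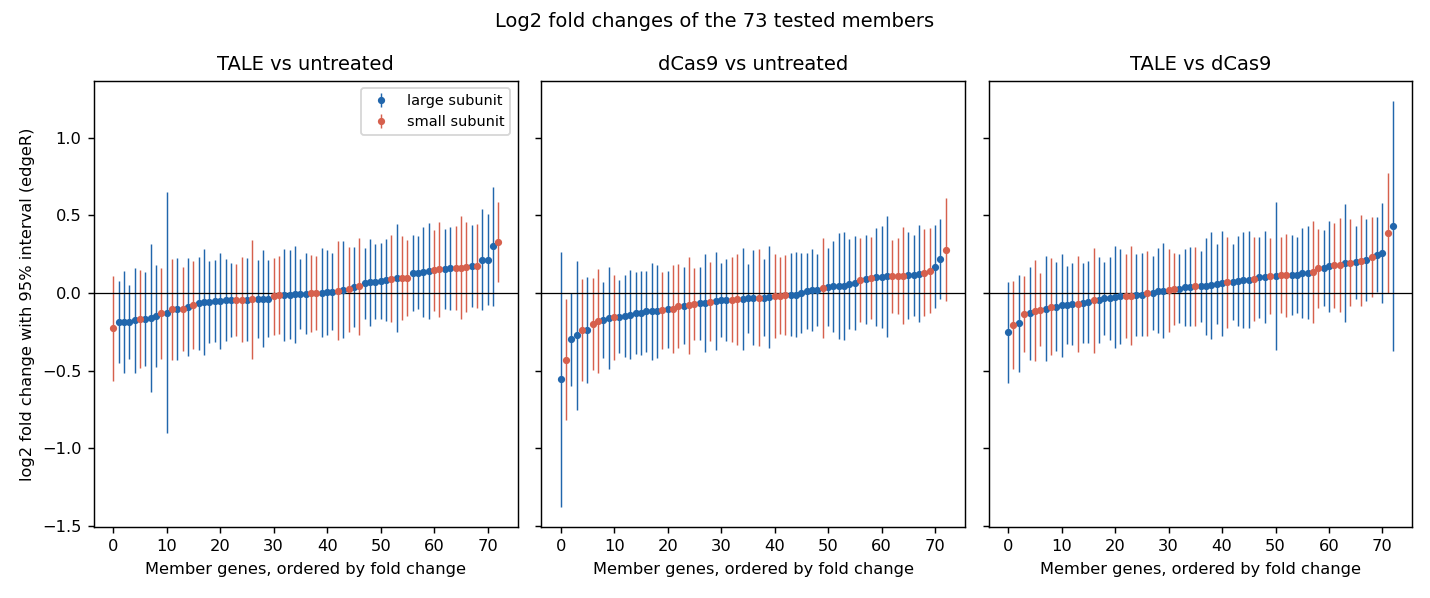
Log2 fold change of each of the 73 tested members (points) with its 95% interval (lines) in the 3 RNA comparisons, ordered within each panel, in blue for the large and red for the small subunit. Most intervals cross 0, no member was called, and the widest interval in each panel is that of MRPL38.

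The 3 homologues of bacterial S18 hold different places, MRPS18A in the large subunit and MRPS18B and MRPS18C in the small one. Per kilobase of merged exons MRPS18B had the highest untreated level, 42.3 ± 1.67, then MRPS18A with 24.0 ± 0.577 and MRPS18C with 14.4 ± 1.04 (SD, n = 3 each). With the canonical transcript MRPS18C (45.2 ± 3.25) was above MRPS18A (28.6 ± 0.687). MRPS18A had 32.6, 32.9 and 34.1 CPM in untreated, 32.5, 36.3 and 43.5 in TALE, and 37.7, 33.9 and 36.2 in dCas9 libraries. MRPS18B had 76.0, 70.9 and 76.0 CPM in untreated, 59.8, 71.7 and 84.9 in TALE, and 81.6, 65.9 and 68.9 in dCas9 libraries. MRPS18C had 64.3, 72.4 and 73.6 CPM in untreated, 57.8, 52.7 and 68.9 in TALE, and 70.0, 72.1 and 43.3 in dCas9 libraries. In every pair of groups the libraries of all 3 genes overlapped, and none of them was called.

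Within the TALE and dCas9 groups the members' levels shifted together between libraries, and in the untreated group their median stayed near 0. For each gene, log2(CPM + 0.5) was compared with its mean over the 9 libraries, and the median deviation of the 73 members was taken per library. It was 0.022, 0.0035 and 0.011 in untreated replicates 1, 2 and 3. In TALE replicates 1 and 2 it was -0.080 and -0.083, and in TALE replicate 3 it was 0.20. In dCas9 replicate 1 it was 0.13, and in replicates 2 and 3 it was -0.070 and -0.14. The median over all genes was between -0.0026 and 0.012 in every library. TALE replicate 3 held the highest value of its group for 59 of 73 members (80.8%, against 39.7% of all genes), and dCas9 replicate 1 for 57 (78.1%, against 33.8%). Both subunits shifted in the same direction. In TALE replicate 3 the median was 0.20 for the large and 0.20 for the small one. In dCas9 replicate 1 it was 0.12 and 0.14, and in dCas9 replicate 3 it was -0.12 and -0.19.

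Medians of other gene groups also differed between these libraries, not all in the members' direction. The members' canonical transcripts are short, with a median of 1260 bases against 3326 over protein-coding genes tested. Protein-coding genes with a canonical transcript of at most 1000 bases had medians of -0.22, -0.12 and 0.21 in the TALE replicates and 0.16, -0.025 and -0.059 in the dCas9 replicates. Those over 1000 to 1500 bases, the band that holds the members' median length, had -0.12, -0.020 and 0.15 in TALE and 0.11, -0.046 and -0.039 in dCas9, nearer to 0 than the members in each of these libraries except TALE replicate 1. Those over 5000 bases had 0.12, 0.039 and -0.13 in TALE and -0.085, 0.047 and 0.025 in dCas9. The cytosolic ribosomal proteins, 72 tested genes, had medians of -0.33, -0.19 and 0.23 in TALE and 0.20, 0.011 and -0.12 in dCas9, and also differed among the untreated libraries (-0.051, 0.12 and 0.14), where the members' medians were near 0. The 17 mitochondrial aminoacyl-tRNA synthetases went another way, with 0.14, 0.070 and -0.016 in TALE and 0.083, -0.19 and -0.042 in dCas9. The share of counts from the mitochondrial genome was 7.15%, 10.3% and 10.2% in the untreated, 6.00%, 4.04% and 6.32% in the TALE and 6.15%, 14.0% and 10.8% in the dCas9 replicates, so that every TALE library was below every untreated one. The part of transcript length, RNA quality or this share in the members' deviations was not tested.

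**Figure D3:**
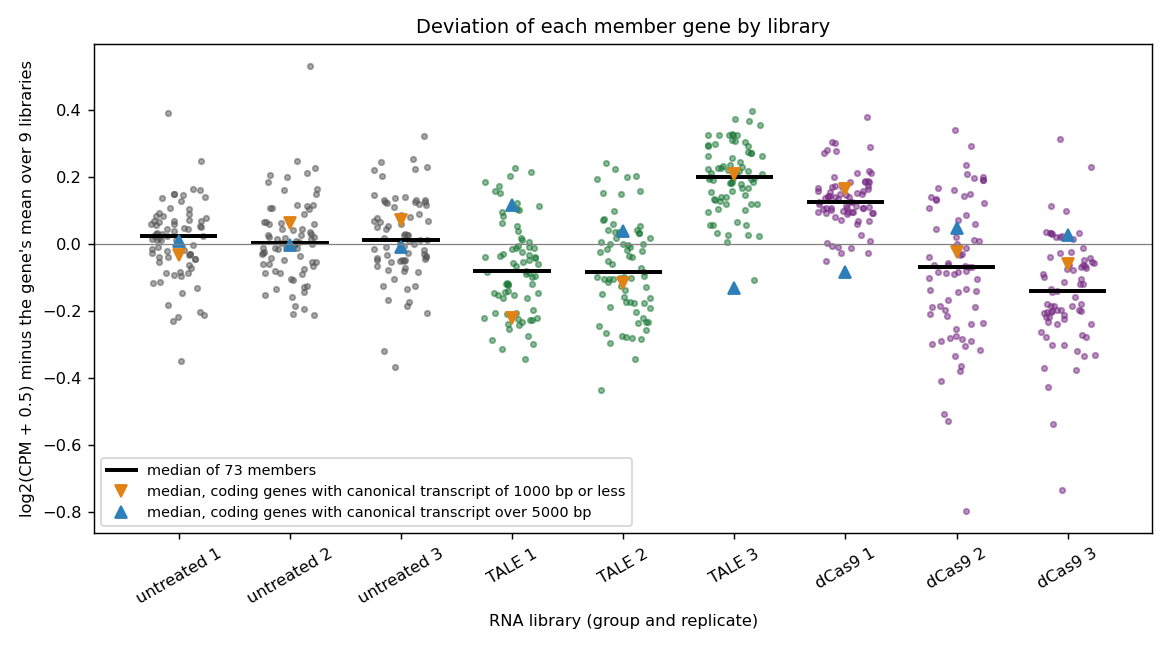
Deviation of log2(CPM + 0.5) from the gene's mean over 9 libraries, for each of 73 members (points) by library, with the members' median (black bars) and the medians of short (orange) and long (blue) protein-coding genes. The members' median is highest in TALE replicate 3 (0.20) and dCas9 replicate 1 (0.13), close to 0 in the untreated libraries, and on the same side of 0 as the short genes in all 6 silenced libraries.

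Leaving out either library that stood apart moved the medians and the counts at an unadjusted p, and left the calls at 0. Without TALE replicate 3 the median of the members in TALE against untreated was -0.11, 7 members had an unadjusted p under 0.05 (against 14.4% of all genes) and 0 were called. TALE against dCas9 without that library turned to a median of -0.054, with 7 members under 0.05 (against 12.7% of all genes) and 0 called. Without dCas9 replicate 1 the median in dCas9 against untreated was -0.10, with 8 members under 0.05 (against 9.6% of all genes), and in TALE against dCas9 it was 0.12, with 9 (against 10.3% of all genes). No member was called in either comparison then. Without TALE replicate 1 or 2 the median in TALE against untreated was 0.058 and 0.057, with 2 and 1 members under 0.05 (against 4.92% and 4.74% of all genes).

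The sum over members repeated this. It was 5616 ± 22.8 CPM in untreated, 5615 ± 627 in TALE and 5504 ± 476 in dCas9 libraries (SD, n = 3 each), so that the means differed by less than the spread within either silenced group. The sum per kilobase of the large subunit was 2.01 ± 0.022 times that of the small one in untreated, 1.96 ± 0.0435 in TALE and 1.95 ± 0.0406 in dCas9 libraries. The median SD of log2 levels over libraries was 0.0723 for members in untreated cells (all genes 0.138), 0.179 in TALE (0.192) and 0.196 in dCas9 (0.192). MRPL54, MRPS28 and MRPL38 had the largest SD within groups, at 0.368, 0.298 and 0.293. MRPL27, near the peptidyl transferase centre, MRPL9 and MRPS27 had the smallest, at 0.0730, 0.0897 and 0.0968. MRPL27 stayed between 49.5 and 57.5 CPM in all 9 libraries, and MRPL54 ran from 9.01 to 19.0 CPM, both extremes in different groups.

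The rest of the mitochondrial translation apparatus was read from lists of genes that work with the members. None of their genes was called in any of the 3 comparisons. Of 7 mitoribosome proteins with other symbols, 7 were tested. The smallest unadjusted p belonged to AURKAIP1 (log2 fold change 0.24, SE 0.17, edgeR adjusted p = 0.858, TALE against dCas9) and GADD45GIP1 (0.16, SE 0.13, edgeR adjusted p = 0.829, TALE against untreated). Of 21 assembly and ribosomal RNA modification factors, 21 were tested. MTG1, a GTPase of ribosome assembly, had 1.91 ± 0.504 CPM in untreated, 0.815 ± 0.121 in TALE and 1.02 ± 0.178 in dCas9 libraries (SD, n = 3 each). It stood at a log2 fold change of -1.22 (SE 0.39, edgeR adjusted p = 0.545) in TALE and -0.91 (SE 0.38, edgeR adjusted p = 0.744) in dCas9 against untreated, from at most 25 counts in a library. DDX28, an RNA helicase of large-subunit assembly, had 0.29 (SE 0.14, edgeR adjusted p = 0.778) in TALE against dCas9.

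All 12 translation factors and all 17 mitochondrial aminoacyl-tRNA synthetases were tested. TSFM, the elongation factor Ts, had 18.7 ± 4.18 CPM in untreated and 24.6 ± 2.93 in TALE libraries (SD, n = 3 each), a log2 fold change of 0.39 (SE 0.16, edgeR adjusted p = 0.649). GFM1, the elongation factor G, had a log2 fold change of 0.29 (SE 0.13, edgeR adjusted p = 0.759) in TALE against dCas9. MARS2, the methionyl-tRNA synthetase, had 17.4 ± 1.94 CPM in TALE and 12.4 ± 2.23 in dCas9 libraries (SD, n = 3 each), a log2 fold change of 0.48 (SE 0.16, edgeR adjusted p = 0.687). HARS2, the histidyl-tRNA synthetase, had 0.31 (SE 0.16, edgeR adjusted p = 0.808) in the same comparison. In the order given, the median log2 fold changes of the 4 lists in TALE against untreated cells were 0.019, 0.023, 0.043 and 0.049, beside -0.0034 for the members. In dCas9 against untreated cells they were -0.068, -0.071, -0.044 and -0.027, beside -0.030. In TALE against dCas9 they were 0.080, 0.076, 0.070 and 0.069, beside 0.044. These lists share libraries with the members and are given as counts and medians only.

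DNA methylation was read at the members' starts from the deposited MeDIP regions. No member had a listed region over its annotated transcript start (0 of 76, against 1.15% of 18951 protein-coding genes). A region lay within 1 kb of the start in 15 members (19.7%, against 18.3%) and within 2 kb in 47 (61.8%, against 42.5%). The authors' peak lists, called per sample, had 0 members with a peak over the start in any of the 9 libraries, against 1.32% to 2.29% of protein-coding genes. Within 1 kb a peak was listed for 11 to 18 members (14.5% to 23.7%, against 12.1% to 17.9%). Regions upstream of the start made up 14 of the 15, and the other, at MRPL4, lay 957 to 1237 bases downstream. The table lists only regions that passed the authors' calling, so a start without a region is not shown to be unmethylated.

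The region nearest to a start, at MRPS22, lay at -521 to -225 bases from it, and that of MRPL52 at -650 to -450 bases, ahead of the promoter shown above.

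Counts at these regions did not differ detectably between groups. Of the 15 regions 11 were tested, and those of MRPS14, MRPS22, MRPS24 and MRPS31 failed the filter on low counts. By edgeR 0 of 11 were called in any comparison, where 0% (TALE against untreated), 0.000947% (dCas9 against untreated) and 0.000947% (TALE against dCas9) of 105652 regions tested were, and DESeq2 called 0. At an unadjusted p under 0.05 the count was 0 in all 3 comparisons, against 4.74%, 4.69% and 4.47% of all regions. The MRPL52 region had 2.46, 4.67 and 1.87 CPM in untreated, 6.00, 5.89 and 2.75 in TALE and 4.35, 4.15 and 7.34 in dCas9 libraries. The untreated libraries overlapped the dCas9 ones through replicate 2, and the log2 fold change of dCas9 against untreated was 0.83 (95% interval -0.13 to 1.79, edgeR unadjusted p = 0.0903, adjusted p = 1.00). It rests on 6 to 17 counts per library.

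The other regions with the smallest unadjusted p were also sparse or level. At MRPL19 the region had 12, 9 and 15 counts in untreated, 8, 16 and 17 in TALE and 6, 10 and 8 in dCas9 libraries. Its log2 fold change of TALE against dCas9 was 0.81 (95% interval -0.18 to 1.80, edgeR adjusted p = 1.00). MRPL17 had 5.84, 9.34 and 5.92 CPM in untreated, 6.00, 3.53 and 5.77 in TALE and 7.90, 6.49 and 7.77 in dCas9 libraries, at -0.51 for TALE against dCas9 (95% interval -1.25 to 0.23). MRPL53 had the deepest region of these, 1220 bases long, with 28.9, 24.6 and 36.1 CPM in untreated and 29.6, 26.3 and 23.3 CPM in TALE libraries. Its log2 fold change was -0.20 (95% interval -0.57 to 0.16), while the RNA of MRPL53 was near 0 counts in all 3 groups. Most canonical exon bases of MRPL53 also belong to CCDC142, as given above, and a link between this region and the RNA was not tested. MRPL35 had 11.98, 7.64 and 12.5 CPM in untreated and 13.9, 13.0 and 13.2 CPM in TALE libraries, which did not overlap, at 0.29 (95% interval -0.25 to 0.83, edgeR adjusted p = 1.00). Inside gene bodies 409 regions lay in 68 members. Of 228 tested, 0 were called in TALE against untreated, dCas9 against untreated or TALE against dCas9, where 0%, 0.000947% and 0.000947% of all regions were. In the same order, 5, 9 and 14 had an unadjusted p under 0.05 by edgeR (2.19%, 3.95% and 6.14%, against 4.74%, 4.69% and 4.47% of all regions).

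**Figure D4:**
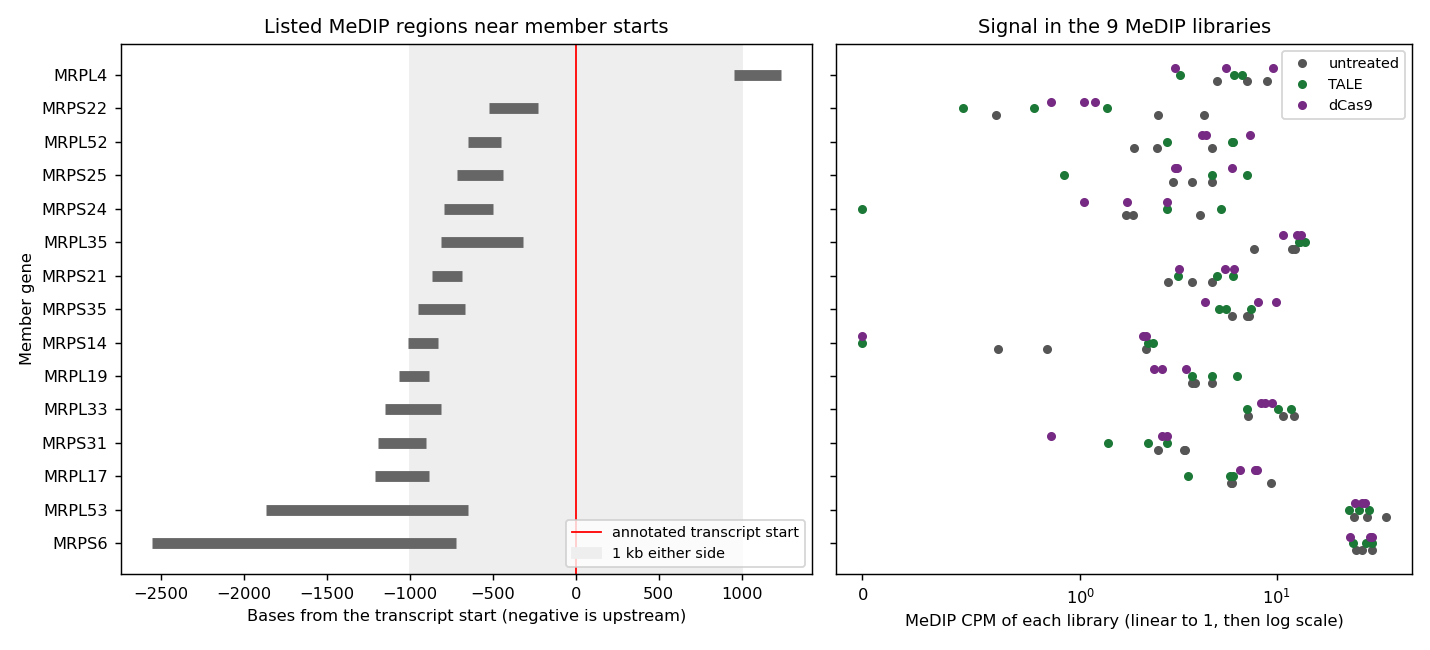
Left, place of each of the 15 MeDIP regions within 1 kb of a member's transcript start, in bases from that start (red line), with the 1 kb window shaded. Right, CPM of that region in each of the 9 MeDIP libraries by group, on an axis that is linear to 1 and logarithmic above. No bar crosses the start, 14 of 15 lie upstream, and the groups' points intermingle for most regions.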

How the data were processed

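The gene table holds raw counts per gene symbol, deposited by the authors for 9 RNA libraries, and the region table holds raw counts per region, deposited by the authors for 9 MeDIP libraries. Per the labels' protocols, cDNA was made from total RNA with a kit for formalin-fixed tissue, and MeDIP libraries were pooled before the capture. Per the submitters' processing notes, STAR 2.3.0 was used for RNA, BWA 0.7.5, Picard, MACS2 and bedtools for MeDIP, and the build was hg19, the sequence of GRCh37. The read counter, its annotation and whether it used strand are not given in the sources used here. Each deposited peak list also gives a score, a ratio (fold enrichment) and the −log10 of p and q per peak, all the authors' own. Only the peaks' positions were used.

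The test was that of edgeR 4.0.16 (R 4.3.3): TMM factors, filterByExpr with a minimum of 10 counts, 1 quasi-likelihood model of group means over the 9 libraries of an assay, and Benjamini-Hochberg adjustment over all genes or regions tested, with calls at an adjusted p under 0.05. Levels are CPM on TMM-scaled counts of tested features. Fold changes are edgeR's, and their SE comes from the test statistic. The code was tested on simulated data. DESeq2 1.42.0, other scalings and filters, a replicate block and leaving out each library were alternatives. Groups and replicate numbers came from the sample titles. Every value column of both tables was matched to a sample. Positions, exon lengths and starts came from GENCODE on GRCh37, in which 35455 of 55766 gene symbols (63.6%) were found.

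The members and lists were chosen with earlier results of these data known. The members named with values were those with the 5 smallest unadjusted p in each RNA comparison, the 5 highest and 5 lowest levels, those that failed the filter, the 3 largest and 3 smallest SD within groups, MRPL12, the S18 homologues, and the 5 smallest p among start regions. Of each other list the 2 genes with the smallest p were named. One marker gene and the sequences of MeDIP regions are not reported here.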

Additional observations from a re-analysis of the deposited data

How the results depend on the processing

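No member was called in any of the 3 RNA comparisons, and no start region in any MeDIP comparison, under any alternative run, so those counts stayed at 0. Over the same RNA alternatives the calls among all genes ran from 1 to 74 in TALE against untreated (3 as reported), 2 to 89 in dCas9 against untreated (4 as reported) and 0 to 77 in TALE against dCas9 (0 as reported), with the highest counts when no filter on low counts was used, and 9, 29 and 0 by DESeq2. Leaving out 1 library at a time, the members' median log2 fold change ranged from -0.11 to 0.058, from -0.10 to 0.0087 and from -0.054 to 0.12 in these comparisons, and the number of members with an unadjusted p under 0.05 from 0 to 7, 0 to 8 and 0 to 9, where 3.17% to 14.4%, 3.73% to 9.60% and 4.35% to 12.7% of all genes had one. The 5 members with the smallest unadjusted p in each RNA comparison and the 5 such start regions kept their direction in that comparison in all alternatives run, and none was called. Fold changes of other members were not followed one by one. The median level per kilobase in untreated cells was 23.7 with merged exons, 33.8 with the longest transcript and 45.2 with the canonical transcript, a length chosen after seeing the data, and 22.8 to 24.1 without 1 library. The summed level in untreated cells was 5616 CPM, 5508 CPM of total counts without TMM, and 6066 CPM when counts of the mitochondrial genome were left out of the total. With the replicate number as a block the members' medians were -0.0063, -0.030 and 0.047, with 0 called in RNA and in MeDIP, and all genes called numbered 3, 2 and 0. Deviations from the group mean in same-numbered libraries of different groups correlated between -0.28 and 0.10 in RNA and between -0.0047 and 0.0040 in MeDIP. For libraries with different numbers the ranges were -0.14 to 0.25 and -0.0081 to 0.0087. Whether same-numbered libraries shared a culture or a batch is not given, and these correlations cannot settle it. The depth limits what can be said of MRPL38, MRPL53, MRPL30 and MRPS24 and of start regions with few counts.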

Other observations

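The table also holds 66 rows of MRPL and MRPS pseudogenes, which the member rule leaves out. Together they had 2063 counts over the 9 RNA libraries, 0.401% of the 514839 counts of the members, and 23 of them had 0 counts in every library. The pseudogenes MRPS36P1, MRPL3P1 and MRPL45P2 passed the filter on low counts. MRPS36P1 had 69, 67 and 76 counts in untreated, 61, 69 and 100 in TALE and 74, 128 and 89 in dCas9 libraries. Its parent gene MRPS36 had 231 to 413 counts per library. Reads that match a gene and its near-identical copy may have been split or dropped, by a rule that is not given in the sources used here. The values of members with such copies, MRPS36, MRPL3 and MRPL45 among them, are uncertain to that extent. This includes members whose pseudogenes had few or 0 counts.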
